A study of Drosophila melanogaster with 3 samples.

Results

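Single-gene promoter peaks are the peaks of CG32006-GFP that lie at the start of 1 protein-coding gene and not between a pair of genes that start back to back. They were taken from the authors' optimal list of 11665 peaks, which had been thresholded by the irreproducible discovery rate (IDR). A peak was a member when its summit, the base of highest enrichment, lay at most 500 bp from a transcription start site (TSS) that belongs to a protein-coding gene. It was left out when a TSS within that distance belonged to a divergent pair, that is, to 2 protein-coding genes on opposite strands that point away from each other with at most 1000 bp between their TSSs. The rule found 1899 peaks. Of the rest, 777 lay at divergent gene-pair promoters and 8989 outside promoters. Within the optimal list the rule used position only and set no condition on signal, replicate support, side of the TSS or sequence. The list itself had already been thresholded, so signal and replicate support were limited beforehand, and the lowest signal of a member was 197. Genes with TSSs only in divergent pairs could not be found by the rule.

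The study mapped DNA binding by chromatin immunoprecipitation with sequencing (ChIP-seq). Whole Drosophila melanogaster prepupae of both sexes, pooled, carried a stable transgene that fuses GFP to the C-terminus of CG32006, and the fusion protein was pulled down through GFP with an antibody. There was 1 group of 3 biological replicates and no second genotype, treatment or time. The labels also give an age of 48 days, which no prepupa has, and the stage name was kept. The promoter that drives the transgene is not given in the sources used here, signal from different tissues of the animal is mixed, and peak lists hold no expression with which the stage could be checked.

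A promoter is the DNA around a TSS where RNA polymerase II and the general transcription factors assemble. Core elements such as the TATA box and the initiator sit at fixed distances from the TSS, and regulatory proteins bind mostly in the nucleosome-poor stretch just upstream. Many Drosophila genes have alternative promoters, which start transcripts at different places and are often used in different tissues or stages. The RefSeq gene table lists FoxJ1 among the synonyms of CG32006, and forkhead factors of that family are known in vertebrates for their part in making motile cilia. Forkhead proteins as a class bind sites with the core TGTTTA.

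The sequences of 3 promoters that carry some of the strongest peaks show what the summits look like. They are the 250 bases before the TSS, 5′ to 3′ on the gene strand, in the dm6 build (RefSeq, Release 6), with the 51 bases centred on the summit in capitals. They were picked after their values were seen, for 1 promoter of an uncharacterised gene, 1 of a heat shock gene with a TATA box, and 1 alternative promoter.
CG31145, chr3R:23669660-23669909, minus strand: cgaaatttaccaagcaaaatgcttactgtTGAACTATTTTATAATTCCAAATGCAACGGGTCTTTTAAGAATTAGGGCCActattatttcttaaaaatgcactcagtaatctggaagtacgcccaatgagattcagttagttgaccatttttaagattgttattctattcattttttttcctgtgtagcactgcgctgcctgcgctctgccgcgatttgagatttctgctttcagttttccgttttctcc
Hsp27, chr3L:9383813-9384062, plus strand: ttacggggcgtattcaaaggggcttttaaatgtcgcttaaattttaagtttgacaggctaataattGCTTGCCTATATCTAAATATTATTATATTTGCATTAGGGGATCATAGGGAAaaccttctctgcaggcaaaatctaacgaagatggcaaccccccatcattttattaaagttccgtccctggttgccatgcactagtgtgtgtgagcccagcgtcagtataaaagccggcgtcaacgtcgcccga
bbx, chrX:21367789-21368038, plus strand: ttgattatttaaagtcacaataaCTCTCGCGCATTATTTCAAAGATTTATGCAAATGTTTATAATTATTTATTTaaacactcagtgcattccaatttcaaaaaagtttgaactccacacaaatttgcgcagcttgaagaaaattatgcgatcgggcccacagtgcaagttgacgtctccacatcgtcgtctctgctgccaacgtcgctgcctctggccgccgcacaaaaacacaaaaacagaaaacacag
The capitals were poorer in G and C than the whole stretch in each case. For CG31145 the GC content was 33.3% in the capitals and 37.2% over the 250 bases, for Hsp27 31.4% and 42.8%, and for bbx 23.5% and 39.6%. Hsp27, the gene of a small heat shock protein, has TATAAA starting 28 bp before its TSS, far from the summit at -159. The bbx stretch, at an alternative TSS of a gene for an HMG box protein, holds TGTTTA 7 bp and TAATTA 13 bp downstream of its summit, and TAAACA, the same core read on the other strand, 25 bp downstream. In the CG31145 stretch neither these letters nor TATAAA were found.

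Shorter windows of 61 bases centred on a summit show the motifs searched for later, with the matching letters in capitals. Each is from the strongest upstream peak that held the motif.
bbg, TGTTTAC on the other strand, chr3L:14448838-14448898, minus strand: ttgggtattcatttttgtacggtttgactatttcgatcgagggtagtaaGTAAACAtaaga
larp, TGTTTA, chr3R:28326565-28326625, minus strand: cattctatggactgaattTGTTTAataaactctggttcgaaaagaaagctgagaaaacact
CG18549, TAATTA, chr3R:12449155-12449215, plus strand: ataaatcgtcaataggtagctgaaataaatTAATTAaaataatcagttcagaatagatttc
CG6231, GAGAGAG, chr3R:19623783-19623843, minus strand: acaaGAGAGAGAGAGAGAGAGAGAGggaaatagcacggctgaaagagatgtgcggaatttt
A match of letters is a description of the window and does not show that a protein binds there.

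The summits stood upstream of the TSS far more often than downstream. With position counted on the gene strand, so that negative values are upstream, 1523 of 1899 summits were upstream (80.2%, Wilson 95% interval 78.3 to 81.9%), 374 were downstream and 2 lay on the TSS base itself. The median position was -197 bp, with quartiles at -318 and -62.5 bp. Of all bases in the genome that meet the position rule, 49.8% are upstream. In the replicates' own lists, each limited to its 11665 strongest rows, the upstream share was 79.2%, 79.6% and 79.8% for replicates 1, 2 and 3 (79.5% ± 0.313, SD, n = 3). Upstream minus downstream was 60.4 percentage points in the optimal list and 58.3, 59.1 and 59.6 in the replicate lists. An exact two-sided sign-flip permutation test over the 3 lists gave p = 0.25, the smallest p that 3 replicates allow.

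Summits were densest between 300 and 100 bp before the TSS and scarce from the TSS onward. The bin from -200 to -100 bp held 21.2% of them (21.2% ± 0.513, SD, n = 3 replicate lists) and that from -300 to -200 bp held 20.7% (20.6% ± 0.425). From -100 bp to the TSS the share was 9.79% (10.0% ± 0.545), and the first 100 bp of the transcript held 4.53% (4.89% ± 0.177). Farther into the gene, each 100 bp held between 3.21% and 4.42%. Each of these bins holds between 9.32% and 10.8% of the bases that meet the rule.

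**Figure D1:**
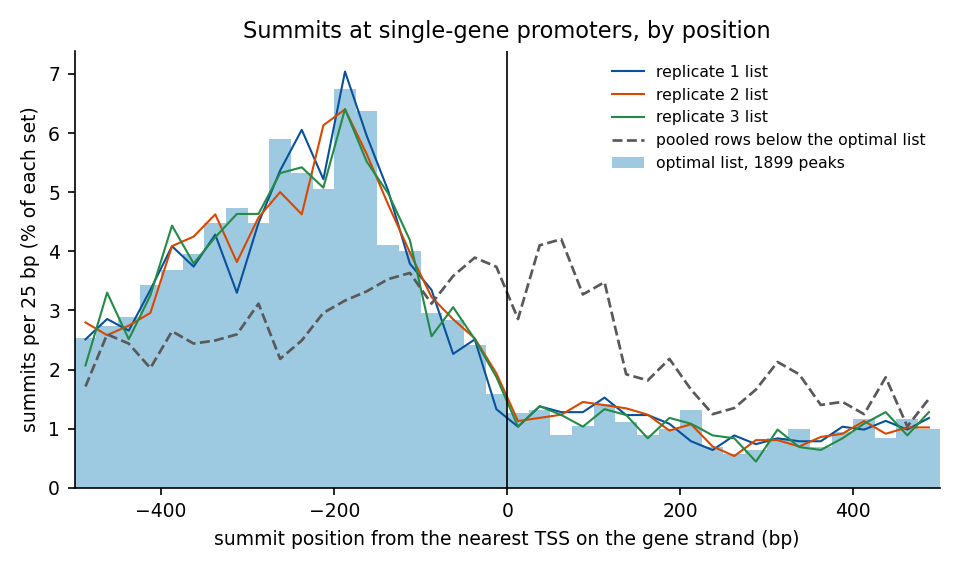
Position of summits from the nearest protein-coding TSS on the gene strand, in bp, as the share of each set per 25 bp. Bars show the 1899 optimal peaks, solid lines the 3 replicate lists, and the dashed line the 1926 weaker rows of the pooled list that meet the same position rule. The bars and all 3 replicate lines peak near -200 bp and are low from the TSS onward, whereas the dashed line is highest around and just after the TSS.

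Rows of the pooled list that did not reach the optimal list had a different profile. These were 1926 of the 18335 weaker rows. Only 57.7% of them were upstream (Wilson interval 55.5 to 59.9%), their median position was -51 bp, and their fullest bin, with 14.4%, was the first 100 bp of the transcript. This contrast was chosen with the data in view. The optimal list is the strongest stretch of the same pooled list, so the difference is one between stronger and weaker rows of 1 peak call.

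The upstream excess was graded with signal within the single-gene promoter peaks too. In their strongest 10%, 177 of 190 summits were upstream (93.2%), and in their weakest 10% the count was 134 of 190 (70.5%). The share in the 8 groups between lay from 73.2% to 85.8%. Median signal was 651 at -300 to -200 bp and 634 at -200 to -100 bp, and it was 401 in the last 100 bp before the TSS and 329 in the first 100 bp after it. Signal is the authors' own peak value, on a scale the files do not state, and ranks peaks only within a list. Of the peaks in the first 100 bp after the TSS, 55.8% were supported by all 3 replicates, against 77.7% at -300 to -200 bp. Support by a replicate means that the summit of the optimal peak fell within a row of that replicate's list.

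**Figure D2:**
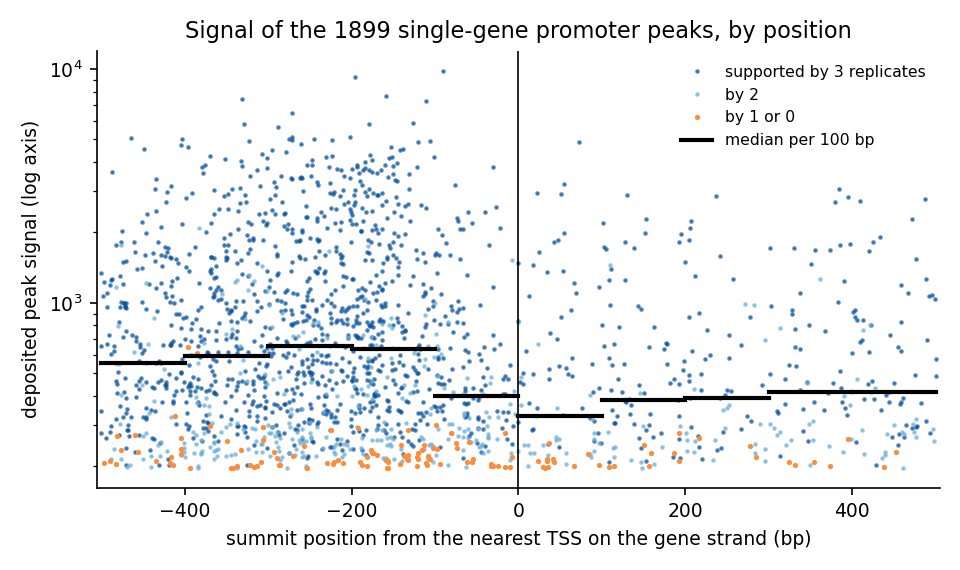
Deposited peak signal (log axis, scale not stated) of each single-gene promoter peak against its summit position from the TSS in bp, coloured by the number of replicates that support it, with the median per 100 bp as a black line. The medians are highest at -300 to -100 bp, with 651 and 634, and lowest in the first 100 bp after the TSS, with 329.

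The upstream share was slightly higher at genes on the plus strand. At genes on the plus strand 83.0% of 886 summits were upstream (Wilson interval 80.3 to 85.3%), and at genes on the minus strand 77.8% of 1013 (75.1 to 80.2%). The difference of 5.17 percentage points had the same sign in each replicate list, with 4.67, 4.37 and 6.56 points (exact two-sided sign-flip permutation p = 0.25, n = 3, the smallest possible). The median positions were -200 and -195 bp. Of the 1899 summits, 821 (43.2%) had been placed at the exact centre of their peak. Among those the upstream share was 75.2% (median -173 bp), and among the 1078 off the centre 84.0% (median -212.5 bp).

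Summit positions recurred closely between replicates. Where a replicate supported a peak, its own summit lay a median of 14, 15 and 13 bp away in replicates 1, 2 and 3. It fell on the same side of the TSS in 98.5%, 98.8% and 99.0% of cases. Of the 1381 peaks supported by all 3 replicates, 1117 were upstream in each replicate, 240 were downstream in each, and 24 changed side. The replicate lists and the optimal list were called against the same control alignment, and the optimal list was made from the same reads as the replicate lists, so this recurrence is not an independent check.

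Upstream summits lay mostly between genes or in introns, and downstream summits in 5′ UTRs or introns. Part of this split is set by the annotation, since a base just downstream of a TSS mostly lies inside the gene. The location of all bases that meet the rule was not counted, so these shares have no background beside them. Of the 1523 upstream summits, 738 (48.5%, Wilson interval 46.0 to 50.97%) lay between genes and 573 (37.6%, 35.2 to 40.1%) in an intron of the gene itself, in front of a TSS inside it. A further 87 lay in an intron of another gene, 54 in a 5′ UTR, 35 in a non-coding gene, 34 in a 3′ UTR and 2 in a coding exon. Of the 376 others, which include the 2 on the TSS base, 200 (53.2%) lay in a 5′ UTR, 154 (41.0%) in an intron of the gene and 20 in a coding exon. Upstream peaks inside an intron of the same gene had a median signal of 636, those between genes 556, and downstream peaks in a 5′ UTR 350.

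The 15 strongest peaks supported by all 3 replicates all had their summits upstream, from -91 to -464 bp. The strongest was at CG14100 on arm 3L (dm6, 19590369 to 19590849), with its summit at -91 and a pooled signal of 9844. Its signal in the lists of replicates 1, 2 and 3 was 2621, 4332 and 2929, and it ranked 6, 1 and 8 in them. The peak at CG31145 (3R, 23669574 to 23670157, summit at -196) had 9266, with 2808, 3213 and 3295 in the replicates and ranks of 2, 8 and 4. At Hsp27 (3L, 9383640 to 9384149, -159) the pooled signal was 7634 and the replicate values 2135, 2971 and 2584. These 3 genes each have 1 annotated TSS, and their peaks lay between genes.

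The next peaks included alternative promoters. At larp, the gene of an RNA-binding protein of the La-related family (3R, 28326295 to 28326879), the summit was at -331 from an alternative TSS that lies 10176 bp from the main one. Its signal was 7459, with 2257, 2687 and 2567 in the replicates. CG18549 (3R, 12448929 to 12449398, -111) had 7282, with 2151, 2661 and 2501. At cu, which encodes a relative of Nocturnin, the peak lay on 3R (11196989 to 11197571, -272). It belonged to an alternative TSS 5440 bp from the main one and had 6479, with 2055, 2060 and 2397. Within each replicate list all 6 of these peaks ranked between 1 and 42.

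The other 9 of the 15 had pooled signals from 5021 to 5882. They lay at Fkbp14, the gene of a peptidyl-prolyl isomerase of the endoplasmic reticulum (5882, -127), CG13631 (5835, -329), Tina-1 (5806, -179) and Sesn, the gene of the stress-responsive TOR inhibitor sestrin (5644, -288). The reticulon gene Rtnl1 (5143, -272), bbx (5104, -202), the Polycomb group gene ph-p (5087, -464), the Sox factor gene Sox14 (5023, -245) and the homeobox gene NK7.1 (5021, -403) followed. At Rtnl1, bbx and NK7.1 the TSS was an alternative one, 12339, 5011 and 2943 bp from the main TSS. That at ph-p, also alternative, lay 233 bp from its main TSS.

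Strong peaks downstream of a TSS were few, and 13 of the strongest 190 peaks were of this kind. The 5 strongest, named after their values were seen, lay at GstE13 (signal 4855, +73), a glutathione S-transferase gene, at CG9399 (3225, +54), at the receptor tyrosine phosphatase gene Ptp4E (3080, +384), at the ketone body enzyme gene SCOT (2959, +22) and at the nuclear receptor gene Eip75B (2920, +51). All 5 were supported by all 3 replicates. The Eip75B peak belonged to an alternative TSS 64875 bp from the main one. Those at GstE13, CG9399, SCOT and Eip75B lay in a 5′ UTR.

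The 500 bp limit did not mark a break in signal. Just inside it, 144 peaks between 450 and 500 bp from a TSS had a median signal of 470, and just outside it, 141 peaks between 501 and 550 bp had 443. The last peaks inside were at Exn (1335), f (656), dlg1 (343) and pes (276), all at -500, and at DopEcR (577) and CG43815 (487), both at +500. Among the first ones outside were those nearest to loco (723), mirr (312) and Cpr97Eb (216), all at -501, ru (676, +502) and CG33725 (2030.0, +503).

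Single-gene promoter peaks were stronger than peaks outside promoters. Their median signal was 513 (quartiles 299 and 1102.6), against 421 outside promoters and 590 at divergent gene-pair promoters. The ratio to peaks outside promoters was 1.22 in the optimal list and 1.15, 1.29 and 1.16 in the replicate lists (1.20 ± 0.0797, SD, n = 3). They made up 28.7% of the strongest 10% of all peaks, with 335, and 13.2% of the weakest 10%, with 154.

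At equal signal they were supported by all 3 replicates less often than peaks outside promoters in 8 of the 10 groups of equal size by signal. In all, 1381 of 1899 were supported by all 3 (72.7%, Wilson interval 70.7 to 74.7%), against 73.9% outside promoters. The difference in support by all 3 was -1.21 percentage points, and -5.11 points with replicate lists of 2 times the length. Another measure is the share supported by a given replicate, whatever the others show. Its difference was 1.63, -3.87 and 2.00 points for replicates 1, 2 and 3 (exact two-sided sign-flip permutation p = 1, n = 3). In the 6th group by signal 79.8% of single-gene promoter peaks and 92.5% of peaks outside promoters were supported by all 3, and in the 8th 47.2% and 64.1%. Lower support was not particular to single-gene promoters. Divergent gene-pair promoter peaks had 79.7% in the 6th group and 47.4% in the 8th. In the 4th group they had 74.6%, against 84.8% at single-gene promoters and 93.2% outside promoters. In the 10th group they were higher, at 16.7% against 10.7% outside promoters. These differences were not tested over replicates. Replicate 2 alone missed 197 single-gene promoter peaks (10.4%), whereas replicate 1 alone missed 79 and replicate 3 alone 121. Among peaks outside promoters replicate 2 alone missed 6.94% and replicate 3 alone 7.09%. Of the divergent gene-pair promoter peaks replicate 2 alone missed 12.9%. The part of replicate 2 in the lower support was not tested.

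**Figure D3:**
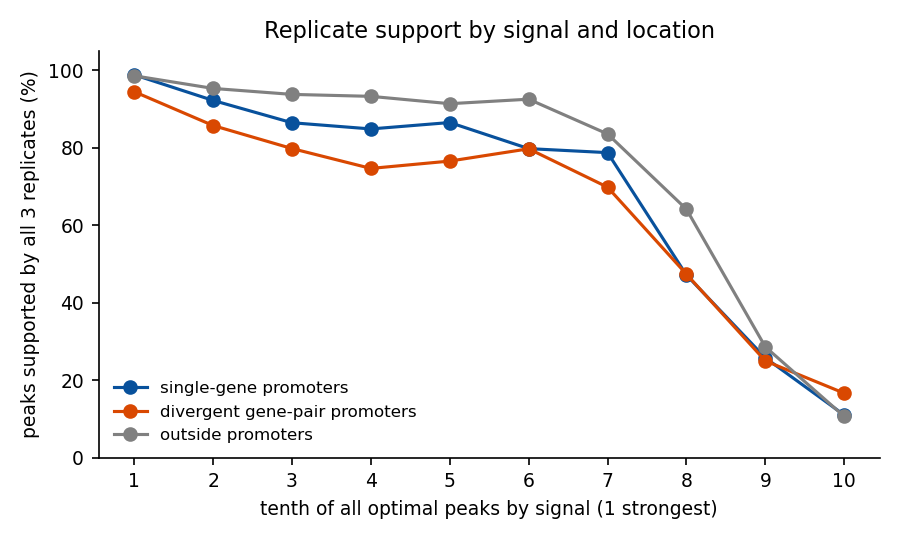
Share of peaks supported by all 3 replicates, in percent, for 10 groups of all optimal peaks by signal (1 is the strongest), with lines for single-gene promoter, divergent gene-pair promoter and other peaks. In the 6th group the single-gene promoter peaks stand at 79.8% and those outside promoters at 92.5%, and in the 10th at 11.04% and 10.7%.

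Alternative promoters carried most of the peaks at genes with several TSSs. The main TSS was taken as that of the Ensembl canonical transcript. Of the 1270 peaks at genes with several TSSs, 488 were nearest to the main one (38.4%, Wilson interval 35.8 to 41.1%; replicate lists 38.03% ± 0.518, SD, n = 3) and 782 to an alternative one. Of the 2491 TSSs of the same 884 genes that lie outside divergent pairs, 31.0% were main TSSs, so main TSSs held a larger share of the peaks than of the TSSs. Over all 2864 such genes, bound or not, the share of TSSs that are main was 36.2%. The remaining 629 peaks lay at genes with 1 TSS.

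Most of the alternative promoters were far from the main TSS. The median distance was 3378 bp, 599 of 782 (76.6%) were more than 1000 bp away, and 17 were within 100 bp. In 540 cases the alternative TSS lay downstream of the main one and in 242 upstream of it. The distance and side of all annotated alternative TSSs were not counted. These shares may therefore be those of alternative TSSs in general. Median signal was 499 at alternative TSSs, 572 at main TSSs of genes with several, and 501 at genes with 1 TSS. The shares supported by all 3 replicates were 74.8%, 70.1% and 72.2%. The upstream share of summits was 75.6% at alternative TSSs (Wilson interval 72.4 to 78.5%), 78.5% at main TSSs of genes with several (74.6 to 81.9%) and 87.3% at genes with 1 TSS (84.4 to 89.7%). Where TSSs of a gene lie close together, a summit upstream of a TSS can be downstream of another.

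The peaks belonged to 1455 genes. Of 9655 protein-coding genes with at least 1 TSS outside divergent pairs, these were 15.1%, and the replicate lists gave 1519, 1416 and 1531 genes. Another 4290 of the 13945 protein-coding genes have TSSs only in divergent pairs and could not be counted. A peak was given to the gene of its nearest TSS, and 41 peaks had TSSs of 2 genes within 500 bp. There were 0 such peaks at CG32006 itself, which lies on chromosome 4 (dm6, 150764 to 153538). That chromosome held 2 of the 1899 peaks, at the Sox factor gene Sox102F (signal 1875, -242) and at the semaphorin receptor gene PlexA (1144, -163).

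Genes with more TSSs were bound more often, and the rise exceeded the added number of TSSs up to 4 to 5 TSSs. Of genes with 1 TSS 8.41% were bound (571 of 6791; replicate lists 8.89% ± 0.534, SD, n = 3), of genes with 2 TSSs 22.5% (22.6% ± 0.680), with 3 TSSs 37.3% (36.7% ± 2.42), with 4 to 5 55.5% (55.5% ± 0.785) and with 6 or more 64.8% (66.7% ± 1.68). Counted per TSS outside divergent pairs, the share with a peak went from 8.41% over 14.0% and 18.9% to 21.4% and 21.1%. Bound genes were also longer, with a median of 7291 bp against 2005 bp for genes not bound. Among bound genes 60.8% had several TSSs, against 24.1% of those not bound. Gene length was greater with more TSSs, from a median of 1690 bp for 1 TSS to 30215 bp for 6 or more, and the separate parts of length and TSS number were not tested.

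On the X chromosome 21.0% of the genes were bound (replicate lists 21.2% ± 0.832, SD, n = 3). The arms 2L, 2R, 3L and 3R lay between 13.9% and 14.1%, with replicate means from 14.1% to 14.5%. On chromosome 4 the 2 bound genes were 3.03% of 66.

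**Figure D4:**
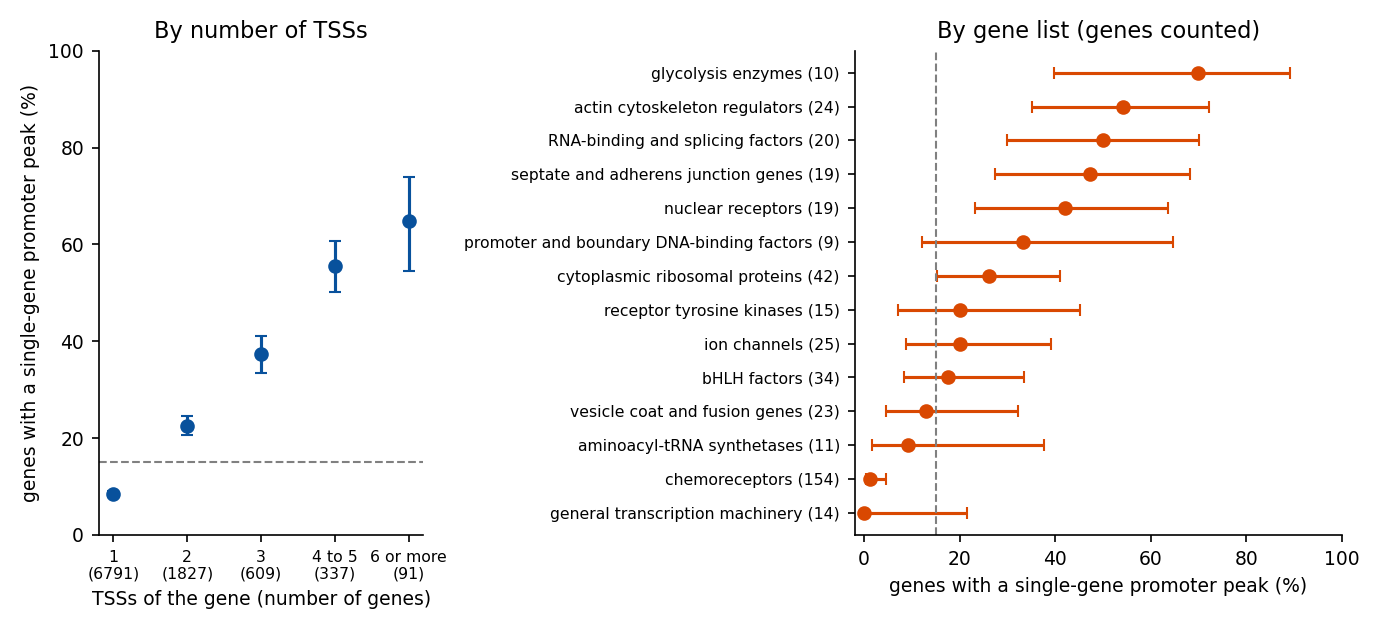
Share of genes with a single-gene promoter peak, in percent with Wilson 95% intervals, by number of TSSs (left) and for 14 gene lists (right), with the number of genes counted in parentheses and the share over all genes, 15.1%, as a dashed line. The share goes from 8.41% for genes with 1 TSS to 64.8% for those with 6 or more, and from 0 of 14 general transcription machinery genes to 70.0% of glycolysis enzymes.

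Several genes had peaks at more than 1 of their promoters. While 1107 genes had 1 peak, 289 had 2 and 59 had 3 or more. These are counts of summits and not of promoters. At CG7627, for example, 2 overlapping peaks had summits at -225 and -429 from the same TSS. At dnc, the cAMP phosphodiesterase gene on X with 9 TSSs, there were 7 peaks at 4 TSSs, with signals from 244 to 3838, and 6 of the 7 were upstream. The strongest, at -331 (3255484 to 3256068), and the next, at -285 (3294766 to 3295239, signal 3486), lay at different alternative TSSs. At shn on 2R, the gene of a zinc finger protein of the Dpp pathway, there were also 7 peaks at 4 TSSs, with signals from 216 to 1374. The tyrosine phosphatase gene Ptpmeg2 had 6 peaks. Its main TSS carried the strongest, 3471 at -209, and 3 alternative TSSs carried 2615 at -197, 2570 at -27 and 2167 at -195, each supported by all 3 replicates. With 5 peaks each, SNF4Agamma, the gene of the AMP-activated kinase gamma subunit (up to 3103), and the actin-binding supervillin gene Svil (up to 2898) had all summits upstream. Others with 5 were l(3)neo38 (1942), the moesin gene Moe (1403), the phosphoglycerate kinase gene Pgk (1364) and mamo (1220.1). Some of these peaks share coordinates and differ in summit only, as did 112 of the 1899 in all.

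Glycolysis enzymes had the largest share of bound genes among the 14 lists examined. Of the 10 that could be counted, 7 were bound (70.0%, Wilson interval 39.7 to 89.2%; replicate lists 73.3% ± 5.77, SD, n = 3), against 15.1% of all genes. The peak at Gapdh2, a glyceraldehyde-3-phosphate dehydrogenase gene, had a signal of 3878 at -160. Those at the lactate dehydrogenase gene Ldh (3786, -184) and the enolase gene Eno (3709, -213) came next. Hex-A (hexokinase, 2019, -189), Pgk (1364, -273), Tpi (triose phosphate isomerase, 779, -298) and PyK (pyruvate kinase, 662, -417) followed. All 7 strongest peaks were upstream and were supported by all 3 replicates. Over all 1455 bound genes the median of the strongest peak was 613, and over these 7 it was 2019. Of the 10 genes 90% have several TSSs, against 29.7% of all genes counted, and the part of that difference in the count was not tested.

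Genes of the cytoskeleton, of RNA processing, of cell junctions and of nuclear receptors were also bound at more than 40% each, where the background was 15.1%. Of 24 actin regulators 13 were bound (54.2%, Wilson interval 35.1 to 72.1%; replicate lists 47.2% ± 6.36, SD, n = 3). They were led by the coronin family gene pod1 (2192, -56), sqh, which encodes the myosin regulatory light chain (1824, +128), and the formin gene capu (1823, -477). Of 20 RNA-binding and splicing factors 10 were bound (50%; 48.3% ± 2.89), led by the neuronal gene elav (3418, -273), the muscleblind gene mbl (1469, -210) and Rbp9 (1104, -365). Of 19 septate and adherens junction genes 9 were bound (47.4%; 40.4% ± 3.04). The strongest there were at Gli, the gliotactin gene (1470, +351), the sodium pump gene Atpalpha (1443, -308) and the polarity gene sdt (687, -459). Of 19 nuclear receptors 8 were bound (42.1%; 42.1% ± 5.26), with Eip75B (2920, +51), Hnf4 (2588, -255) and Hr78 (1759, -35) ahead of eg (1018) and EcR (973). The Wilson intervals were 29.9 to 70.1% for the RNA list, 27.3 to 68.3% for the junction list and 23.1 to 63.7% for the nuclear receptors. In these 4 lists 57.9% to 85.0% of the genes have several TSSs. Over all 2864 genes with several TSSs 884 were bound, from 22.5% with 2 TSSs to 64.8% with 6 or more. The background of 15.1% is therefore not a like one for these lists, and the part of TSS number was not tested.

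The other lists lay nearer to the background or below it. Of 9 promoter and boundary factor genes 3 were bound, Trl, the GAGA factor gene (2282, +153), psq (1734, +103) and BEAF-32 (447, -89). Of 42 ribosomal protein genes 11 were bound (26.2%, Wilson interval 15.3 to 41.1%), led by RpL27A (544, -164), RpS10b (457, +2) and RpL24 (372, +13). Another 50 ribosomal protein genes have TSSs only in divergent pairs. Receptor tyrosine kinases had 3 of 15 bound (20%), htl (929, -384), the insulin receptor gene InR (415, +124) and dnt (281, -490). Ion channels had 5 of 25 (20%), led by Ih (454), RyR (369) and slo (252). Of 34 bHLH factors 6 were bound (17.6%), led by Mnt (1344), trh (772) and gce (377). Vesicle genes had 3 of 23 (13.0%), deltaCOP (1298), AP-1gamma (641) and Syx1A (232), and aminoacyl-tRNA synthetases 1 of 11 (9.09%), AlaRS (237).

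Chemoreceptor genes and the general transcription machinery were at the low end. Of 154 chemoreceptor genes 2 were bound (1.299%, Wilson interval 0.357 to 4.61%; replicate lists 0.866% ± 0.375, SD, n = 3), Gr77a (287, -161) and Ir67c (231, -293). Only 7.79% of these genes have several TSSs, and the share bound over all genes with 1 TSS was 8.41%. Of 14 genes of the general transcription machinery 0 were bound, which allows a share of up to 21.4%, and the replicate lists gave 7.14% ± 7.14. Another 19 genes of that list have TSSs only in divergent pairs.

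The summits lay in stretches poor in G and C, as did those of the other peak classes. Within 50 bp of the summit the mean GC content was 34.5%, against 41.2% in windows of the same size centred 500 bp upstream and 45.1% at 500 bp downstream on the gene strand. The difference to the upstream flank was -6.63 percentage points, and -6.20, -5.44 and -7.18 in the replicate lists (-6.27 ± 0.875, SD, n = 3; exact two-sided sign-flip permutation p = 0.25, the smallest possible). The summit was below both flanks at 1134 peaks (59.7%) and above both at 264 (13.9%). GC content at the summit was 29.3% in the strongest 10% of these peaks and 40.4% in the weakest 10%. It was 33.4% at upstream summits and 39.1% at the others. By position it was lowest at -300 to -200 bp, with 31.3%, and 40.9% in the first 100 bp after the TSS. Position, signal and GC content therefore moved together, and their separate parts were not tested. The other peak classes had lower GC at the summit, and a larger gap to the upstream flank. At divergent gene-pair promoter peaks the mean was 32.9% at the summit and 45.8% at 500 bp upstream. At peaks outside promoters it was 32.5% and 43.4%.

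Promoters without a peak had a GC dip too, and it was shallower. Around 837 main TSSs with an upstream single-gene promoter peak the GC content in 51 bp windows was lowest at -269 bp, with 34.3%, was 43.5% at -100 bp and stood at 49.2% at the TSS. Around 7847 main TSSs of genes without such a peak it was lowest at -208 bp, with 37.3%, and was 38.9% at -100 bp and 43.5% at the TSS. At -550 bp the profiles stood at 40.8% and 40.4%.

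**Figure D5:**
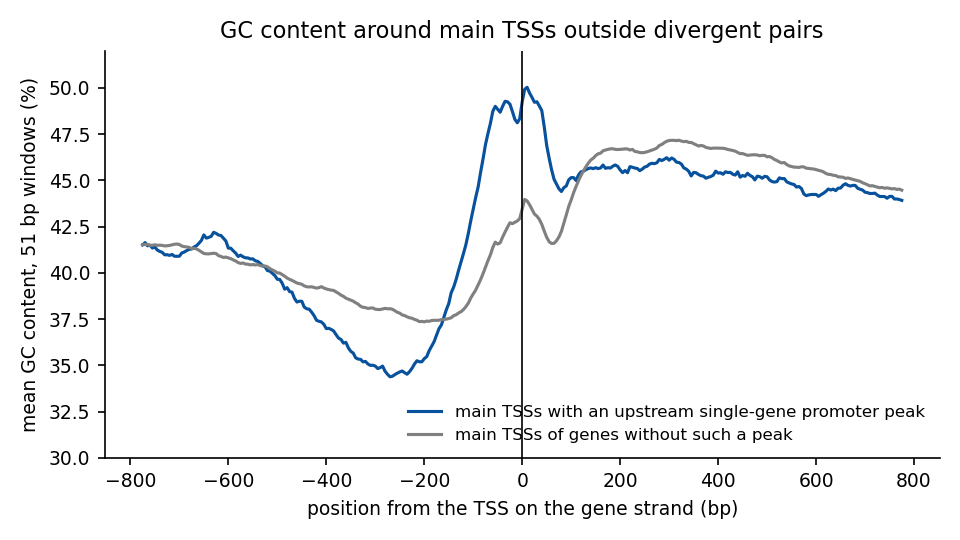
Mean GC content in 51 bp windows, in percent, against the position from the main TSS on the gene strand in bp, for 837 main TSSs with an upstream single-gene promoter peak and 7847 main TSSs of genes without one. The axis does not start at 0. The line for promoters with a peak is lower from about -525 to -165 bp, with 34.3% at -269 bp, and higher around the TSS, with 49.2% against 43.5%. It is also lower from about 125 bp after the TSS onward, with 45.4% against 46.7% at 400 bp, and slightly lower from about -755 to -675 bp.

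Of the 14 motifs examined, promoters with a peak differed from the others most in the GAGA motif, the repeat bound by the GAGA factor. Motifs were looked for in the 250 bp before to 50 bp after the main TSS, on both strands unless stated. Over all 1899 peaks the lower quartile of summit position was -318 bp, so many summits lay outside this window. GC content around the TSS also differed between promoters with an upstream peak and those without one. Its part in the motif shares was not tested. GAGAGAG was found in 17.0% of 1006 promoters with a peak (Wilson interval 14.8 to 19.4%; replicate lists 16.3% ± 0.874, SD, n = 3), in 6.31% of 7847 without one (5.79 to 6.87%) and in 7.76% of all 9190. It was also more frequent in promoters with a peak among genes with 1 TSS (14.9% against 5.27%) and among genes with several (19.8% against 10.3%). The matches clustered closer to the TSS than the summits did. Of promoters with a peak 7.06% had a match starting at -100 to -51 bp and 5.07% in the 50 bp before that, against 2.10% and 2.00% of those without. Within 50 bp of the summits GAGAGAG was found at 2.79% of peaks, against 3.79% and 3.32% in the upstream and downstream flanks.

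Core promoter elements differed as well. The initiator letters TCAGT on the gene strand, within 5 bp of the TSS, were found in 15.01% of promoters with a peak (Wilson interval 12.9 to 17.4%) and 8.77% of those without (8.16 to 9.41%), with 9.61% over all. TATAAA on the gene strand, starting 40 to 20 bp before the TSS, was found in 4.17% (3.10 to 5.60%) and 8.72% (8.11 to 9.36%), with 7.98% over all. The direction of both was the same among genes with 1 TSS and among genes with several. For TATAAA among genes with several TSSs the values were 2.99% (1.75 to 5.05%) and 4.36% (3.47 to 5.47%), with overlapping intervals.

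The other promoter elements went in both directions. TCGATA, the core bound by BEAF-32, was found in 15.3% of promoters with a peak and 20.8% of those without (20.1% over all). TATCGATA, the DNA replication-related element that contains it, was found in 3.78% and 5.57% (5.29% over all), with intervals that overlap slightly. For GGTCACACT, known as motif 1, the values were 3.88% and 3.30% with overlapping intervals (3.48% over all). The E-box CAGCTG was more frequent in promoters with a peak, at 18.3% (Wilson interval 16.02 to 20.8%) against 15.1% (14.3 to 15.9%), with 15.7% over all. So was the repeat CACACACA, at 7.75% (6.26 to 9.57%) against 4.82% (4.37 to 5.31%), with 5.30% over all.

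Within the window searched, the forkhead site was not more frequent in promoters with a peak. TGTTTAC was found in 7.26% of them (Wilson interval 5.81 to 9.03%), in 8.08% of those without (7.497 to 8.70%) and in 8.13% of all. The shorter TGTTTA, which is part of it, was found in 26.2%, 30.3% and 29.9%. Within 50 bp of the summits TGTTTAC was present at 2.21% of peaks, against 2.32% and 2.26% in the upstream and downstream flanks. TGTTTA was present at 13.4% (replicate lists 13.9% ± 0.512, SD, n = 3), against 10.4% and 9.79%. Other letters rich in A and T were also more frequent at summits than in the flanks. TAATTA stood at 10.1% against 7.21% and 5.27%, AGATAA at 7.74% against 5.63% and 5.06%, and AAAAAAAA at 9.69% against 5.003% and 7.16%. TATATATA stood at 2.69% against 2.00% and 1.26%. Summits had a lower GC content than both flanks on average, and its part in these shares was not tested. In the promoter windows TAATTA was found in 15.9% with and 18.6% without a peak (18.2% over all), and AGATAA in 16.5% and 19.3% (18.9%). For AAAAAAAA the shares were 15.9% and 16.2% (16.1%), and for TATATATA 3.78% and 5.26% (5.09%).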

How the data were processed

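ChIP-seq for GFP was done on 3 biological replicates of whole prepupae that carried CG32006-GFP, and chromatin was sheared by sonication into fragments of 200 to 800 bp, per the labels. The authors deposited a list of 30000 peaks and background regions for each replicate, a pooled list of 30000 and an optimal list of 11665. All 4 were called against the same control alignment, per the deposited notes. The signal values and the −log10 q values are the authors' deposited values, and the scale of the signal is not stated. The tools for alignment and peak calling, the number of reads and the threshold of the IDR step are not given in the sources used. Depth is therefore unknown, and Wilson 95% intervals cover only the counting error of peaks or genes. Lists in the dm3 build were not used here.

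Summits were placed by adding the deposited offset to the start of the peak, and 9 that fell beyond the end (3 of them at single-gene promoter peaks) were moved to the last base. TSSs were the 19607 starts of protein-coding transcripts on 6 arms in the Ensembl annotation, release 115, of which 6184 belonged to divergent pairs. That annotation and the RefSeq Release 6 sequence share dm6 coordinates, and every peak lay within its arm. Each replicate list was limited to its 11665 strongest rows. Replicate errors are SDs over the 3 replicate lists, and no test was made over peaks or genes. Symbols of the gene lists all matched a gene, some through RefSeq synonyms. Approximate upper limits for a count of 0 are 3 over the number of genes.

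The peaks, gene lists and motifs were chosen with earlier results of these data known. The naming rule covered CG32006, the 15 strongest peaks with support from every replicate, up to 3 bound genes per list by signal, up to 8 genes with 3 or more peaks, the 5 strongest peaks at alternative TSSs over 1000 bp from the main TSS, the 5 peaks on either side of the 500 bp limit, and the genes of the sequences shown, for which arm 2R was not used. Genes with 5 peaks or tied distances beyond that rule were added after their values were seen. The genes of the strongest downstream peaks, of the chromosome 4 peaks and further list members were named after their values were seen. Alternatives were other distances, divergent gaps, peak thresholds, main TSS definitions, support rules and windows, and leaving out each replicate. Scripts were tested on simulated data and ran in Python 3.11.15 with numpy 2.4.6, pandas 2.3.3 and scipy 1.17.1.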

Additional observations from a re-analysis of the deposited data

How the results depend on the processing

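Of 68 alternative values, 37 stayed within the replicate SD or, for counts, within 1.5 times, 31 did not, and 0 changed direction. With a TSS distance of 250 bp there were 1006 peaks at 896 genes, upstream minus downstream was 58.1 percentage points, the share at the main TSS 39.7% and GC at the summit minus flank -3.86 points. With 1000 bp, upstream minus downstream was 44.7 points. A divergent gap of up to 2000 bp gave 62.8 points. The strongest 50% of the optimal list left 1089 peaks at 926 genes, with 69.9 points, a main TSS share of 39.7% and a GC difference of -9.47 points. The mean of the replicate lists was 59.0 points, and main TSSs alone gave 62.9. The alternatives added after the data were seen gave 68.1 points for summits off the peak centre and 15.4 for the weaker pooled rows. Taking the farthest 5′ TSS as the main one gave a share of 35.9%, and counting TSSs within 100 bp as main gave 39.8%. Replicate lists of 2 times the length moved the support difference to -5.11 points. The GC difference was -10.6 points against the downstream flank and -5.27 with windows of 100 bp either side. Leaving out each replicate in turn, which keeps the peaks supported by both others, gave 62.6 to 63.2 points upstream minus downstream, 37.15% to 37.23% at the main TSS, signal ratios of 1.27 to 1.31 and GC differences of -7.93 to -7.41 points. Peaks were called on all 3 replicates throughout, so no replicate's reads were removed. The causes of these changes were not tested, apart from the change of the set itself. No paired analysis was possible because there is only 1 group. Depth is unknown, and the 3 replicates limit every exact test to p = 0.25 or above.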
